A study of Homo sapiens with 16 samples.

Results

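The genes described here are MYC, its obligate partner MAX, the MAX partners that oppose MYC (MXD1, MXD3, MXD4, MXI1, MNT and MGA) and the MAX-like protein MLX. They were taken by gene symbol from the deposited expression table, in which 9 of 23459 genes matched, 1 row each. In GRCh38 (GENCODE 29) MYC is on chromosome 8, MAX on 14, MXD1 on 2, MXD3 on 5, MXD4 on 4, MXI1 on 10, MNT and MLX on 17 and MGA on 15. All 9 averaged more than 1 FPKM (fragments per kilobase of exon, scaled to library size) and were tested.

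The samples were 16 RNA-seq libraries of human multiple myeloma cells, which are malignant plasma cells. Cells of KMS18, of RPMI8226 overexpressing Mcl1 (written RPMI8226+Mcl1), of RPMI8226 and of MM.1s each received a short hairpin RNA (shRNA) against CD28, CD86 or Gapdh, or the empty vector pLK0.1, called Vec. The 4 backgrounds and 4 constructs give 16 combinations with 1 library each, so the 3 parental lines KMS18, RPMI8226 and MM.1s served as replicates of a shRNA. RPMI8226+Mcl1 is a single derived line, so its libraries are not separate derivations. CD28 is a costimulatory receptor, CD86 is one of its ligands, Mcl1 is an anti-apoptotic protein, and the shRNA against Gapdh was the control hairpin.

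MYC binds DNA as a dimer with MAX at E-box motifs and activates genes of ribosome production, nucleotide synthesis and metabolism. The MXD proteins, MXI1 and MNT also dimerise with MAX at E-boxes and recruit SIN3 and histone deacetylase complexes that repress transcription, and MGA joins MAX in a repressive complex with E2F6 and PCGF6. MLX pairs with the glucose-responsive factors MLXIP and MLXIPL and also with some MXD proteins and MNT, and MYC is a frequent site of rearrangement in myeloma.

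Between 3914513 and 5900955 reads per library lay in genes, and in each background the library with CD28 shRNA had the fewest. Relative to Vec of the same background, CD28 was at 65.1% to 79.3% under its own shRNA, CD86 at 44.1% to 76.3%, and GAPDH at 10.7% to 53.0%. MCL1 averaged 150 FPKM in RPMI8226+Mcl1 and 54.5 FPKM in RPMI8226. The summed level of 8 plasma cell markers was 631 to 1887 FPKM per library, although SLAMF7 was listed at 0 in some. The 6 T cell markers in the table summed to 0 to 7.68 FPKM, with CD3E at up to 7.21 FPKM and CD3D at 0 in all libraries. The 7 myeloid markers summed to 0 to 3.54 FPKM with FCGR3A at 0 in all, and the 6 stromal markers to 0.0597 to 0.841 FPKM with 3 of them at 0 in all.

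MYC was by far the most abundant transcript of the network. It averaged 335 ± 62.1 FPKM over the 16 libraries (SD), which ranked 83 of 23459 genes. MLX followed at 19.7 ± 3.69 FPKM, MXD4 at 14.6 ± 7.10, MAX at 13.7 ± 1.96, MXI1 at 10.7 ± 1.76, MXD3 at 9.59 ± 6.56, MNT at 8.03 ± 1.41, MXD1 at 2.97 ± 1.04 and MGA at 2.93 ± 0.958 FPKM (SD, 16 libraries each). In this order MYC and MLX did not overlap, nor did MNT and MXD1, while all other neighbours overlapped in their ranges. MYC rested on 2577 to 7727 reads per library, and MXD1, the member with the fewest, on 40 to 166. MAX, which every MYC dimer needs, was thus present at a small part of the MYC level, with a ratio of MYC to MAX FPKM of 16.5 to 32.6 per library. Transcript levels do not give protein levels, which were not measured here.

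**Figure D1:**
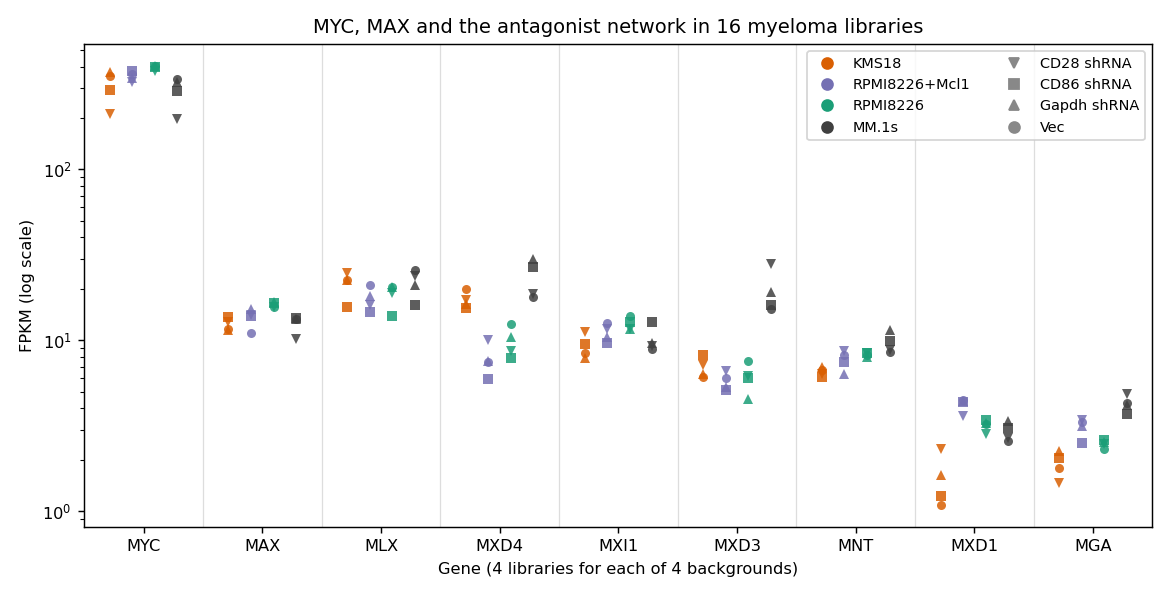
FPKM on a log scale (vertical axis) of the 9 genes (horizontal axis) in 16 libraries; colour gives the background and shape the construct. MYC lies between 197 and 403 FPKM, above every other member, and MXD3 and MXD4 are spread most between backgrounds.

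MYC itself differed between the lines. In KMS18 it had 210, 293, 374 and 353 FPKM with CD28, CD86 and Gapdh shRNA and Vec. In RPMI8226+Mcl1 it had 326, 374, 343 and 361 FPKM, in RPMI8226 377, 398, 403 and 401 FPKM, and in MM.1s 197, 287, 325 and 338 FPKM, in the same order of constructs. All RPMI8226 libraries were above all those of KMS18 and of MM.1s, and KMS18 and MM.1s overlapped. The limma estimate on the log2(FPKM + 1) scale was -0.39 (SE 0.11, adjusted p = 0.00726) for KMS18 against RPMI8226 and 0.49 (SE 0.11, adjusted p = 0.00197) for RPMI8226 against MM.1s, while KMS18 against MM.1s gave 0.10 (SE 0.11, adjusted p = 0.457). Without the libraries with CD28 shRNA the difference between KMS18 and RPMI8226 was -0.25 (limma adjusted p = 0.0174), and its call was lost with no replicate block (limma adjusted p = 0.0699). Each line contributes 4 libraries that differ in construct and not 4 cultures of 1 kind, so these p-values measure the spread between libraries of single lines. MAX was distributed in a like way, with its highest level in RPMI8226. MAX averaged 12.4 ± 1.00 FPKM in KMS18, 16.2 ± 0.523 in RPMI8226 and 12.6 ± 1.62 in MM.1s (SD, 4 libraries each). The log2 difference of MAX was -0.36 (SE 0.10, adjusted p = 0.00608) for KMS18 against RPMI8226, 0.35 (SE 0.10, adjusted p = 0.00762) for RPMI8226 against MM.1s and -0.01 for KMS18 against MM.1s (SE 0.10, adjusted p = 0.93), all by limma.

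MXD3 and MGA were the antagonists that passed as higher in MM.1s against both other parental lines. MXD3, an MXD protein known for its expression in dividing cells, had 7.14, 8.16, 6.32 and 6.10 FPKM in KMS18 with CD28, CD86 and Gapdh shRNA and Vec. In RPMI8226 it had 6.21, 6.05, 4.53 and 7.51 FPKM, and in MM.1s 27.9, 16.02, 19.3 and 15.2 FPKM. Every MM.1s library was above every library of the other backgrounds, and the highest was the one with CD28 shRNA. MXD3 was lower in KMS18 than in MM.1s by a log2 difference of -1.34 (SE 0.17, limma adjusted p = 3.84e-05) and lower in RPMI8226 than in MM.1s by -1.52 (SE 0.17, limma adjusted p = 1.30e-05), the largest differences of any member between parental lines. Of the exon bases of MXD3, 731 of 3292 also belong to PRELID1 on the opposite strand. PRELID1 had 71.1, 80.9, 90.8 and 87.0 FPKM in MM.1s, in the order CD28, CD86, Gapdh and Vec. Like MXD3, it was higher in each MM.1s library than in any library of the other backgrounds (41.5 to 67.6 FPKM). Within MM.1s PRELID1 was lowest with CD28 shRNA, where MXD3 was highest. It is unknown if reads were assigned by strand. If they were not, MXD3 and PRELID1 cannot be told apart in the shared stretch. The part of PRELID1 in the MXD3 differences was not tested.

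MXD4, an MXD protein associated with resting and differentiating cells, had 17.3, 15.4, 16.4 and 20.0 FPKM in KMS18 in the order CD28, CD86, Gapdh and Vec. In RPMI8226 it had 8.63, 7.92, 10.5 and 12.4 FPKM, and in MM.1s 18.5, 26.9, 30.1 and 18.0 FPKM. RPMI8226 lay below both other lines in all libraries, and KMS18 and MM.1s overlapped. The log2 difference was 0.76 (SE 0.17, limma adjusted p = 0.00188) for KMS18 against RPMI8226 and -1.15 (SE 0.17, limma adjusted p = 0.000108) for RPMI8226 against MM.1s. Against MM.1s, KMS18 was at -0.39 (SE 0.17, limma adjusted p = 0.066), which did not pass.

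KMS18 had the least MXD1 and MGA. MXD1, the founding MXD protein, had 2.32, 1.23, 1.64 and 1.09 FPKM in KMS18, 2.81, 3.44, 3.28 and 3.25 FPKM in RPMI8226, and 2.66, 3.06, 3.37 and 2.56 FPKM in MM.1s, in the order CD28, CD86, Gapdh and Vec. It was lower in KMS18 by -0.73 against RPMI8226 (SE 0.15, limma adjusted p = 0.000947) and by -0.63 against MM.1s (SE 0.15, limma adjusted p = 0.00296), with no overlap in either case, although MXD1 in KMS18 rested on only 40 to 72 reads per library and the difference from MM.1s was -0.94 with voom on reads. MGA averaged 1.89 ± 0.338 FPKM in KMS18, 2.48 ± 0.114 in RPMI8226 and 4.24 ± 0.474 in MM.1s (SD, 4 libraries each). MGA was lower in KMS18 than in MM.1s by -0.86 (SE 0.12, limma adjusted p = 8.29e-05) and lower in RPMI8226 than in MM.1s by -0.59 (SE 0.12, limma adjusted p = 0.00126). Between KMS18 and RPMI8226 the difference of MGA was -0.28 (SE 0.12, limma adjusted p = 0.0621), which did not pass although the libraries did not overlap.

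MNT, a broadly expressed MYC antagonist, and MXI1, an MXD protein also called MXD2, are the remaining MAX-binding repressors. MNT averaged 6.54 ± 0.394 FPKM in KMS18, 8.24 ± 0.205 in RPMI8226 and 9.69 ± 1.36 in MM.1s, and was lower in KMS18 than in MM.1s by -0.50 (SE 0.10, limma adjusted p = 0.00104). MXI1 averaged 9.25 ± 1.43 FPKM in KMS18, 12.46 ± 1.07 in RPMI8226 and 10.2 ± 1.78 in MM.1s (SD, 4 libraries each). KMS18 against RPMI8226 gave -0.40 for MXI1 (SE 0.12, limma adjusted p = 0.0123) and -0.29 for MNT (SE 0.10, limma adjusted p = 0.0204), but each call was lost when some single constructs were left out. MLX gave 0.20 for KMS18 against RPMI8226 (limma adjusted p = 0.0408) and -0.22 for RPMI8226 against MM.1s (limma adjusted p = 0.0313), with overlapping libraries and calls that several alternatives ended (adjusted p up to 0.318 and 0.287).

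Counted together, 4 of 9 members passed for KMS18 against MM.1s, all lower in KMS18, where 65.3% of 11316 genes passed (30.8% higher and 34.5% lower). For KMS18 against RPMI8226 it was 7 of 9, of which 2 were higher, against 70.3% of genes (35.2% higher and 35.1% lower). For RPMI8226 against MM.1s it was 6 of 9, of which 2 were higher, against 69.1% of genes (33.2% higher and 35.9% lower). The libraries did not overlap for 4, 7 and 6 members in these comparisons, against 51%, 61.5% and 57.8% of genes. The lines differ at most of their genes, and the members' share was below that of all genes in the first comparison and near it in the others.

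To set MYC against its antagonists, its FPKM was divided in each library by the summed FPKM of MXD1, MXD3, MXD4, MXI1, MNT and MGA. This ratio is a description of transcript levels, with no test. It was 4.61, 6.88, 9.01 and 7.998 in KMS18 with CD28, CD86 and Gapdh shRNA and Vec. In RPMI8226+Mcl1 it was 7.43, 10.7, 9.22 and 8.56, in RPMI8226 9.40, 9.68, 9.97 and 8.45, and in MM.1s 2.73, 3.96, 4.17 and 5.89. MM.1s thus had the lowest ratio with each construct. The antagonists summed to 43.5 ± 1.81 FPKM in KMS18, 39.6 ± 4.19 in RPMI8226+Mcl1, 42.3 ± 3.51 in RPMI8226 and 69.9 ± 8.80 in MM.1s (SD, 4 libraries each), so that MM.1s stood out by the sum of the antagonists while its MYC level overlapped that of KMS18. By their means, MXD3 and MXD4 contributed most to the higher sum in MM.1s. KMS18 had a sum like that of RPMI8226 with a higher mean of MXD4 and lower means of MXD1, MXI1, MNT and MGA. With Vec alone the sums were 44.1, 42.2, 47.5 and 57.4 FPKM in KMS18, RPMI8226+Mcl1, RPMI8226 and MM.1s. There MXD4 was lower in MM.1s than in KMS18 (18.0 against 20.0 FPKM). The mean log2 ratio was 2.79 in KMS18, 3.15 in RPMI8226+Mcl1, 3.23 in RPMI8226 and 2.01 in MM.1s, and MM.1s remained the lowest when reads were not divided by exon length (2.04, 2.25, 2.39 and 1.24, backgrounds in the same order) and when MGA and MNT were left out (3.10, 3.61, 3.65 and 2.34).

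**Figure D2:**
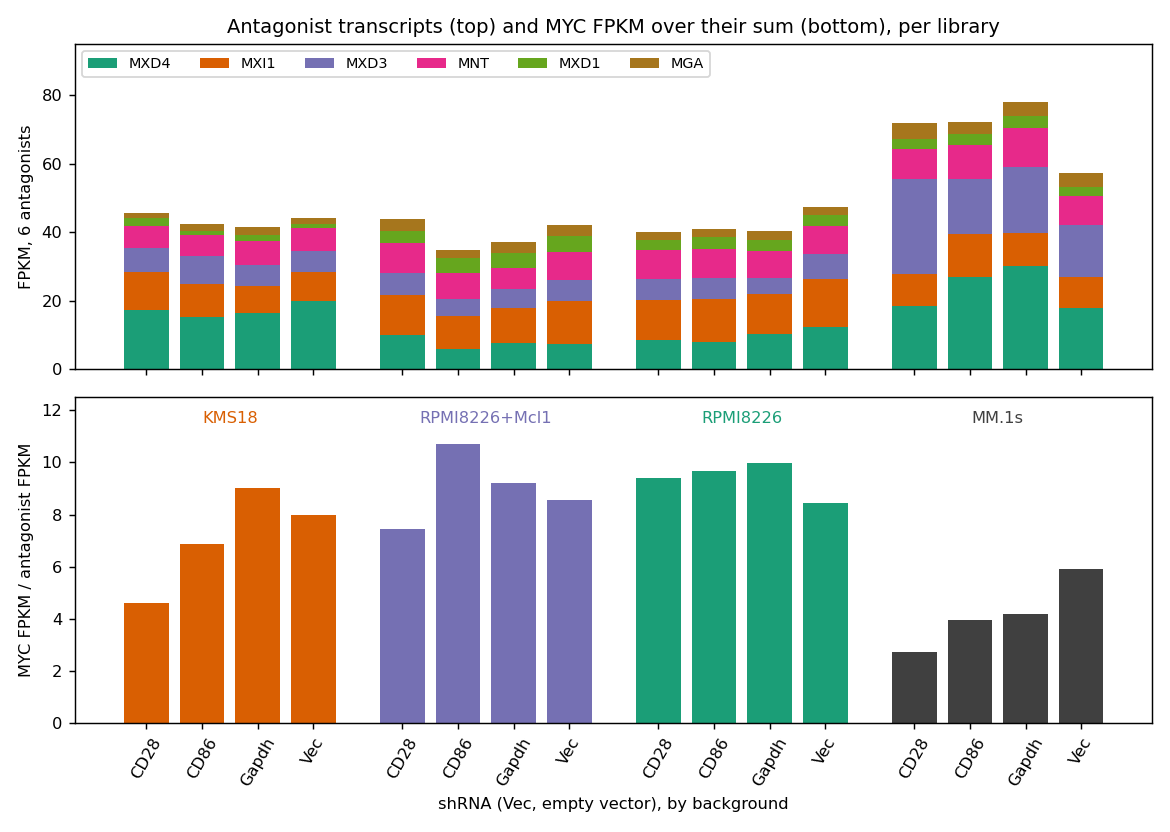
Upper panel, FPKM of the 6 antagonists stacked per library; lower panel, MYC FPKM divided by that sum, with the 16 libraries ordered by background and construct. The MM.1s bars hold the most MXD3, and their ratios of 2.73 to 5.89 lie below those of the other backgrounds with the same construct. MXD4 overlaps between MM.1s and KMS18, and with Vec it is higher in KMS18 (20.0 against 18.0 FPKM).

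Overexpression of Mcl1 in RPMI8226 went with small differences in the network. MYC was lower in RPMI8226+Mcl1 than in RPMI8226 with every construct, at 351 ± 21.0 against 395 ± 12.2 FPKM (SD, 4 libraries each), without overlap. The log2 difference was -0.17 (SE 0.03, limma adjusted p = 0.00655), and this call held in every alternative run. MAX was at 14.1, 13.8, 15.2 and 11.1 FPKM in RPMI8226+Mcl1 against 15.8, 16.5, 16.7 and 15.7 in RPMI8226 (log2 difference -0.25, SE 0.08, limma adjusted p = 0.0409), and MXD1 at 3.61, 4.36, 4.39 and 4.50 FPKM against 2.81, 3.44, 3.28 and 3.25 (0.31, SE 0.09, limma adjusted p = 0.0324). Both pairs of groups did not overlap, but both calls were lost whichever construct was left out (adjusted p 0.0588 to 0.140 for MAX and 0.0649 to 0.114 for MXD1). In total 3 of 9 members passed, 1 of them higher, against 34.4% of 11024 genes (19.5% higher and 14.9% lower), and 3 did not overlap, against 25.3% of genes. The spread here comes from 2 lines, 1 of them derived from the other, so a difference due to Mcl1 and a difference between sublines cannot be told apart.

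Under CD28 shRNA MYC fell, and no antagonist passed the test. The MYC values given above put the libraries with CD28 shRNA at 59.7% of Vec in KMS18, 90.4% in RPMI8226+Mcl1, 93.9% in RPMI8226 and 58.1% in MM.1s. The library with CD28 shRNA had the lowest MYC in all 4 backgrounds, far below the others in KMS18 and MM.1s and close to them in both RPMI8226 backgrounds. Across the 3 parental lines the log2 change was -0.54 (SE 0.13, limma adjusted p = 0.0497), on the threshold of 0.05, and the exact sign-flip test over lines gave p = 0.25, the smallest that 3 lines allow. Without MM.1s the call was lost (-0.42, adjusted p = 0.341), as it was without KMS18 (-0.44, adjusted p = 0.287), whereas without RPMI8226 it was kept (-0.76, adjusted p = 0.0182, all limma). In the authors' deposited table the log2 change of MYC was -0.52 with a false discovery rate of 0.0017. The authors' values, here and below, come from this same series by their own test and are not independent of the limma fits. MYC was the 1 member of 9 called, against 2.83% of 11316 genes (0.716% higher and 2.11% lower), and its direction was shared by the 3 lines, as for 39.7% of genes. The call also ended with a pseudocount of 0.1 (adjusted p = 0.0624) and with median-of-ratios scaling (adjusted p = 0.0533), and was kept with voom on reads (adjusted p = 0.0159), all limma. In such bulk RNA, fewer cells with high MYC and less MYC RNA per cell cannot be told apart.

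The partners and antagonists showed no common response to CD28 shRNA. MXD3 was at 183% of Vec in MM.1s but at 117% in KMS18, 109% in RPMI8226+Mcl1 and 82.6% in RPMI8226, and its estimate was 0.26 (SE 0.20, limma adjusted p = 0.51). MXD1 was at 214% of Vec in KMS18, on 40 to 72 reads per library, and at 80.3%, 86.5% and 104% in RPMI8226+Mcl1, RPMI8226 and MM.1s (0.19, SE 0.17, limma adjusted p = 0.593). MXD4 was at 86.4%, 135%, 69.5% and 103% of Vec in KMS18, RPMI8226+Mcl1, RPMI8226 and MM.1s (-0.21, SE 0.20, limma adjusted p = 0.601). These 3 genes thus lay on different sides of Vec in different backgrounds. MXI1, MNT, MGA, MAX and MLX had estimates between -0.08 and 0.06, none of which passed (limma adjusted p 0.737 to 0.996). The summed antagonists changed by 0.05 in KMS18, 0.06 in RPMI8226+Mcl1, -0.24 in RPMI8226 and 0.33 in MM.1s on the log2 scale. The log2 ratio of MYC to the antagonists accordingly changed by -0.80 in KMS18, -0.20 in RPMI8226+Mcl1, 0.15 in RPMI8226 and -1.11 in MM.1s.

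**Figure D3:**
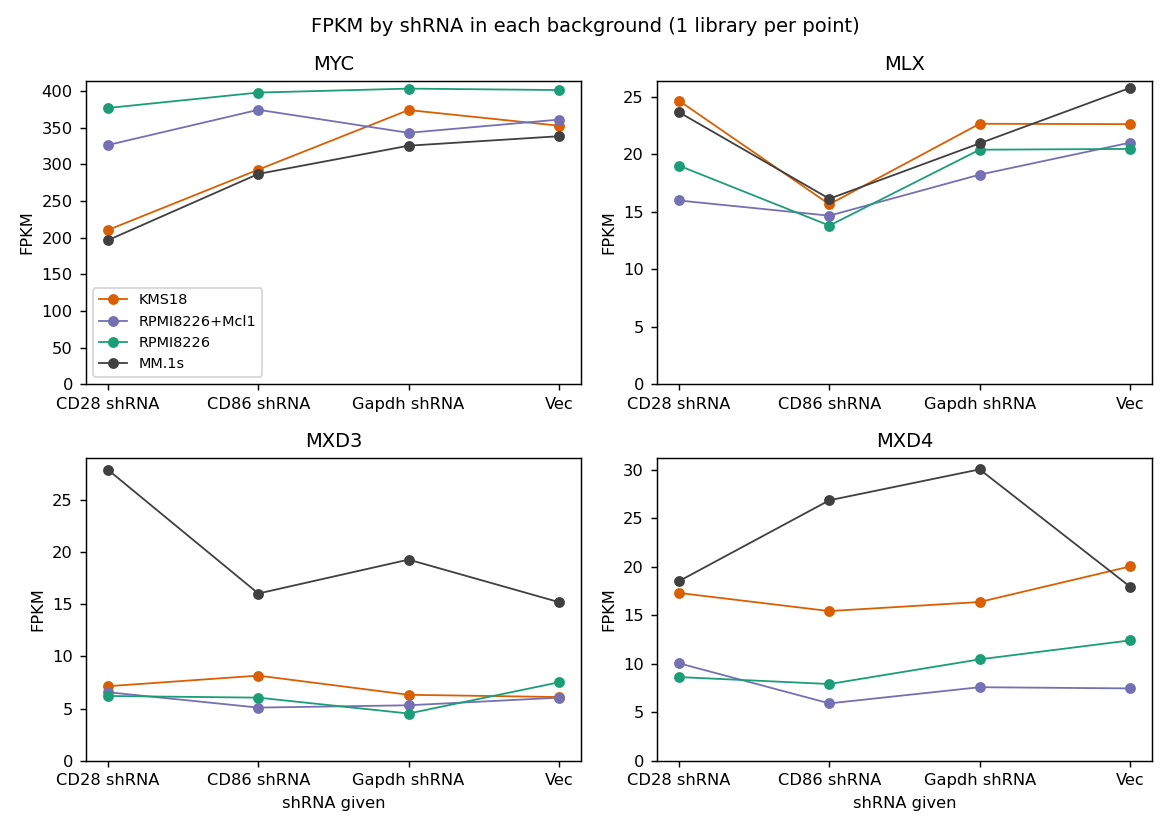
FPKM (vertical axis, from 0) of MYC, MLX, MXD3 and MXD4 with CD28, CD86 and Gapdh shRNA and Vec (horizontal axis), 1 line per background and 1 library per point. MYC is lowest with CD28 shRNA, at 210 FPKM in KMS18 and 197 FPKM in MM.1s, and MLX is lowest with CD86 shRNA, at 13.8 to 16.1 FPKM.

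Under CD86 shRNA the member that fell was MLX, the dimer partner of the glucose sensors MLXIP and MLXIPL. In KMS18 MLX had 15.6 FPKM with CD86 shRNA, against 24.7 with CD28 shRNA, 22.7 with Gapdh shRNA and 22.6 with Vec. In RPMI8226+Mcl1 it had 14.7 FPKM with CD86 shRNA, against 15.98, 18.2 and 21.0 with CD28 shRNA, Gapdh shRNA and Vec. In RPMI8226 it had 13.8 FPKM against 19.003, 20.4 and 20.5, and in MM.1s 16.1 FPKM against 23.6, 20.9 and 25.8, in the same order. The library with CD86 shRNA was the lowest in all 4 backgrounds, at 62.6% to 69.8% of Vec. The log2 change over the 3 parental lines was -0.56 (SE 0.09, limma adjusted p = 0.0274), all 3 lines were lower, and the exact sign-flip p was 0.25, the smallest possible. MLX was the 1 member of 9 called, against 0.627% of 11316 genes (0.0619% higher and 0.566% lower), and 34.6% of genes had 1 direction in the 3 lines. In the authors' deposited table its log2 change was -0.61 with a false discovery rate of 0.00191. With 2 lines in the fit the change kept its size, at -0.52 without MM.1s, -0.57 without RPMI8226 and -0.59 without KMS18, but not its call (limma adjusted p 0.194, 0.1503 and 0.283).

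The 3′ untranslated region of MLX was read because small RNAs can lower transcripts that pair with their seed. For the hairpins themselves, sequences were not at hand. Among 63 other genes lowered by CD86 shRNA, 58.7% carried the heptamer TCAAGCA in the longest annotated 3′ untranslated region (GENCODE 29), against 13.8% of 10173 genes. Over all genes the shift was small, with a median log2 change of -0.03 for genes with the heptamer and 0.03 for those without. The heptamer was picked as the one with the largest difference between those shares in these data, so this is a description and no test. The median length of the region was 952 bases in the lowered genes and 1333 bases in all genes. MLX carries this heptamer 804 bases after its stop codon, and MXD1 is the other member with it. Both sites are shown with the flanking bases and the heptamer in capitals, MLX on chr17:42572397-42572423 and MXD1 on chr2:69940353-69940379, both on the plus strand of GRCh38.
MLX: accctttctgTCAAGCAtatcttggcc
MXD1: actagacctcTCAAGCAttttgtttca
MXD1, with the same heptamer and the fewest reads of any member, was at 0.12 under CD86 shRNA (SE 0.17, limma adjusted p = 0.814). The part of the heptamer in the fall of MLX was not tested. For CD28 shRNA the heptamer chosen in the same way was CTGTGTT, in 61.6% of 219 lowered genes and 24.4% of 10173 genes, with medians of -0.05 with it and 0.01 without it over all genes. MYC carries neither heptamer in its region of 476 bases, which is short beside the median of 1333 bases over all genes. Of the members with CTGTGTT (MXD1, MXI1, MNT and MGA) none passed under CD28 shRNA. Pairing of the CD28 hairpin with MYC or any other member was not tested. Exons of MLX overlap those of PSMC3IP on the other strand over 770 of 2590 exon bases, and PSMC3IP was at -0.10 under CD86 shRNA (SE 0.19, limma adjusted p = 0.866). PSMC3IP had 12.8, 6.20, 7.64 and 9.62 FPKM with CD86 shRNA in KMS18, RPMI8226+Mcl1, RPMI8226 and MM.1s. With Vec it had 16.5, 9.99, 5.77 and 12.1 FPKM, in the same order. It is unknown if reads were assigned by strand, and the part of PSMC3IP in the fall of MLX was not tested.

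The other members did not pass under CD86 shRNA. MYC was at 83.0%, 104%, 99.1% and 84.8% of Vec in KMS18, RPMI8226+Mcl1, RPMI8226 and MM.1s (log2 change -0.17, SE 0.13, limma adjusted p = 0.6), and MAX at 117%, 124%, 105% and 101% (0.10, SE 0.11, limma adjusted p = 0.76). The antagonists had estimates from -0.13 for MXD4 to 0.18 for MXI1 (limma adjusted p 0.632 to 0.962). The log2 ratio of MYC to the antagonists changed by -0.22 in KMS18, 0.32 in RPMI8226+Mcl1, 0.20 in RPMI8226 and -0.57 in MM.1s. The comparisons of CD28, CD86 and Gapdh shRNA with Vec share the same Vec libraries and are not independent of each other.

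The 2 knockdowns were also compared directly, which leaves Vec out of the difference. MLX was lower with CD86 shRNA than with CD28 shRNA by -0.53 (SE 0.09, limma adjusted p = 0.0079), in all 3 lines, and was the 1 member of 9 called, against 9.51% of genes (5.41% higher and 4.1% lower; 42.9% had 1 direction in the 3 lines). The split over all genes was 612 higher and 464 lower, and 496 and 571 with median-of-ratios scaling. The estimate for MLX in the authors' deposited table was -0.59 with a false discovery rate of 0.00108. MYC was at 0.37 for CD86 shRNA minus CD28 shRNA (SE 0.13, limma adjusted p = 0.0928), higher with CD86 shRNA in 3 of 3 lines without passing, so a difference between the 2 knockdowns in MYC was not established. Without RPMI8226, or with voom on reads, 2 members passed, MLX and MYC, and without MM.1s or without KMS18 0 passed in limma (2151 and 2199 genes at an unadjusted p under 0.05).

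Under Gapdh shRNA, the control hairpin, no member passed. Members' estimates lay between -0.10 and 0.21, 0 of 9 passed in limma, and 0% of 11316 genes passed, with 402 genes at an unadjusted p under 0.05 and 0 genes passing with voom. No member had an unadjusted p under 0.05. MYC was at 106%, 95.002%, 100% and 96.2% of Vec in KMS18, RPMI8226+Mcl1, RPMI8226 and MM.1s. In MM.1s MXD4 was at 167% of Vec with Gapdh shRNA and 150% with CD86 shRNA, and in RPMI8226 at 84.3% and 63.8%, so single-library departures of this size occurred with the control hairpin too. The ratio of MYC to the antagonists in MM.1s was 4.17 with Gapdh shRNA against 5.89 with Vec, a log2 change of -0.50. In KMS18, RPMI8226+Mcl1 and RPMI8226 this log2 ratio changed by 0.17, 0.11 and 0.24. The summed antagonists in MM.1s were above Vec with each hairpin, by 0.33, 0.33 and 0.44 with CD28, CD86 and Gapdh shRNA on the log2 scale. All these changes in MM.1s share its single Vec library.

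Whether RPMI8226+Mcl1 responded differently from the parental lines was tested as an interaction. For MYC under CD28 shRNA the difference was 0.39 (SE 0.25, limma adjusted p = 1), that is a smaller fall in RPMI8226+Mcl1 than the mean of the 3 lines, which did not pass. RPMI8226 itself was at 93.9% of Vec, close to the 90.4% of RPMI8226+Mcl1. Of the 9 members 0 passed under CD28, CD86 or Gapdh shRNA, with limma or voom, and 0 had an unadjusted p under 0.05 with limma. Of all 11349 genes 0.00881%, 0% and 0% passed for the 3 shRNAs, with 371, 293 and 213 at an unadjusted p under 0.05 and 0 passing with voom. The spread in this test comes from the parental lines, since RPMI8226+Mcl1 has 1 library per construct.

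**Figure D4:**
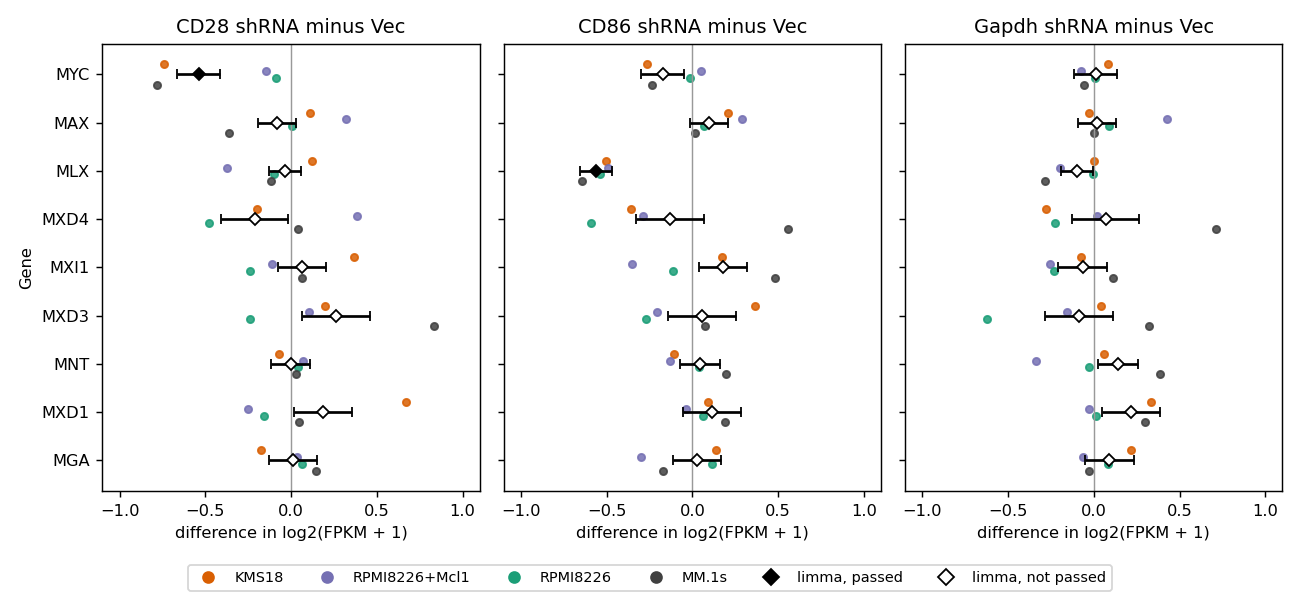
Difference from Vec in log2(FPKM + 1) (horizontal axis) for the 9 genes (vertical axis) with CD28, CD86 and Gapdh shRNA; dots are the 4 backgrounds and diamonds the limma estimate over the 3 parental lines with its SE, filled where the adjusted p is under 0.05. The filled diamonds are MYC under CD28 shRNA (-0.54) and MLX under CD86 shRNA (-0.56).

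The genes that MYC is known to activate were examined next, from a list of 41 genes of which 40 were tested. Under CD28 shRNA 6 of 40 were lower and 0 higher, where 2.11% of all genes were lower and 0.716% higher. At an unadjusted p under 0.05 there were 26 of the 40, against 2240 of all 11316 genes. Voom called 8 of them, against 599 of all genes. The median estimate was -0.25 and 38 were below 0, where the median of all genes was -0.003 and 50.6% were below 0. PAICS, a purine synthesis enzyme, had 59.8, 57.4, 58.0 and 60.97 FPKM with CD28 shRNA in KMS18, RPMI8226+Mcl1, RPMI8226 and MM.1s, against 119, 92.5, 88.0 and 108 FPKM with Vec (log2 change -0.80, SE 0.09, limma adjusted p = 0.00184). NOLC1, a nucleolar chaperone, had 52.9, 58.1, 55.3 and 50.8 FPKM against 95.2, 90.3, 87.1 and 87.9 with Vec (-0.75, SE 0.09, limma adjusted p = 0.00184). Both lay below Vec in every background, including both RPMI8226 backgrounds, where MYC was at 90.4% and 93.9% of Vec. Both carry the heptamer CTGTGTT, but both were among the lowered genes from which it was picked. The part of the heptamer in their fall was not tested. FBL, the nucleolar RNA methyltransferase, had 147, 115, 105 and 125 FPKM with CD28 shRNA against 191, 130, 144 and 197 FPKM with Vec (-0.49, SE 0.08, limma adjusted p = 0.0137). SRM, spermidine synthase, had 154, 152, 192 and 111 FPKM against 210, 236, 275 and 203 FPKM (-0.61, SE 0.12, limma adjusted p = 0.0312). FBL and SRM do not carry the heptamer and were also below Vec in each background, most in MM.1s. The 7 targets with the heptamer had a median of -0.36 and those without it -0.24. The lowered targets were among the genes used to pick the heptamer, so these medians are a description and no test.

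By background, the median of the 40 targets under CD28 shRNA was -0.27 in KMS18, -0.18 in RPMI8226+Mcl1, -0.08 in RPMI8226 and -0.42 in MM.1s. The median was lowest in KMS18 and MM.1s, where MYC was also lowest relative to Vec. Under CD86 shRNA 0 of 40 passed in limma. At an unadjusted p under 0.05 there were 3, against 1453 of all 11316 genes, and voom called 1, against 224 of all genes. Of the 40, 27 were below 0 with a median of -0.04, where all genes had a median of 0.02 and 45.6% below 0. The median was -0.14, 0.04, 0.04 and -0.06 in KMS18, RPMI8226+Mcl1, RPMI8226 and MM.1s. Under Gapdh shRNA 0 of 40 passed in limma or voom, and 2 had an unadjusted p under 0.05 in limma, against 402 of all genes. Yet 36 of 40 were below 0 with a median of -0.08, where all genes had a median of -0.01 and 53% below 0. In MM.1s the median was -0.17, and MYC was at 96.2% of Vec. For CD86 shRNA against CD28 shRNA 7 of 40 targets were higher and 1 lower, with a median of 0.23, where 5.41% of all genes were higher and 4.1% lower, with a median of 0.03. Those with the smallest p were NOLC1 (0.76), FBL (0.49), lactate dehydrogenase LDHA (0.41) and PAICS (0.36), and the lower one, named after its value was seen, was the cyclin-dependent kinase CDK4 (-0.27, limma adjusted p = 0.0415).

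**Figure D5:**
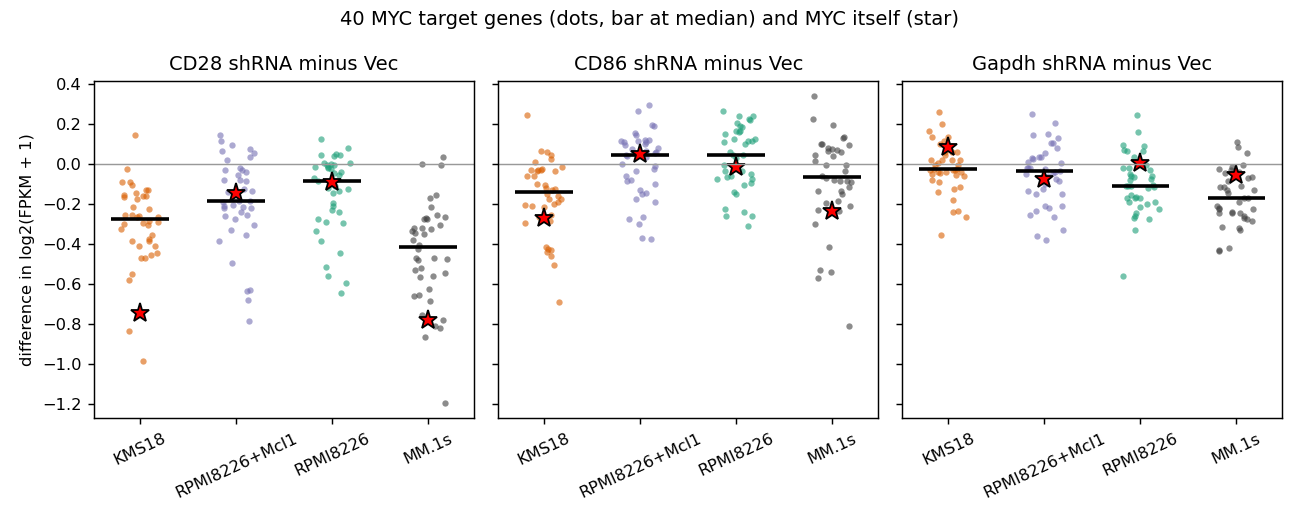
Difference from Vec in log2(FPKM + 1) (vertical axis) of 40 MYC target genes (dots, black bar at the median) and of MYC (star) in 4 backgrounds, for CD28, CD86 and Gapdh shRNA. With CD28 shRNA the medians are -0.27, -0.18, -0.08 and -0.42 in KMS18, RPMI8226+Mcl1, RPMI8226 and MM.1s.

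The E-box CACGTG, the motif that MYC, MAX, MXD and MLX dimers bind, was searched in promoters (250 bases before to 50 after the gene start, RefSeq, GRCh38.p14). The motif reads the same on both strands. It was present in 8.77% of 27305 promoters, in 13.3% of 8466 promoters of tested genes and in 55.9% of the 34 matched MYC targets. Of the 8 matched members (not MYC), MLX, MNT and MXD4 held it. The sites of these members and of FBL, LDHA (the first of its 2) and SRM, targets lowered by CD28 shRNA, are shown with the E-box in capitals, each on the strand of its gene: MLX at chr17:42567040-42567065 (plus), MNT at chr17:2401238-2401263 (minus), MXD4 at chr4:2262332-2262357 (minus), FBL at chr19:39846358-39846383 (minus), LDHA at chr11:18394368-18394393 (plus) and SRM at chr1:11060202-11060227 (minus).
MLX: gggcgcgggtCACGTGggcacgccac
MNT: ctgcccgggcCACGTGtgcgcgcgcc
MXD4: gccgggccacCACGTGctgttgctaa
FBL: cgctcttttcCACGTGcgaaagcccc
LDHA: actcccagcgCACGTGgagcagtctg
SRM: ggccgggcccCACGTGgcccctggag
The members with the motif were at -0.03 for MLX, -0.00 for MNT and -0.21 for MXD4 under CD28 shRNA, and none of these passed. Binding was not measured here.

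Cofactors and regulators around the network were counted in the same way. Of 18 corepressor genes, 2 were lower under CD28 shRNA, where 2.11% of all genes were lower: L3MBTL2, a subunit of the MGA complex (-0.80, SE 0.10, limma adjusted p = 0.00387), which carries CTGTGTT, and SAP30, a SIN3 subunit (-0.61, SE 0.14, limma adjusted p = 0.0499), which does not. L3MBTL2 and SAP30 were both among the lowered genes from which CTGTGTT was picked. Under CD86 shRNA 0 of these 18 passed in limma or voom, and 0 had an unadjusted p under 0.05 in limma. Of 14 MYC coactivators, 0 passed under CD28 shRNA in limma or voom (4 at an unadjusted p under 0.05), and ACTL6A, an actin-related subunit of chromatin complexes, was the 1 gene lower under CD86 shRNA, where 0.566% of all genes were lower (-0.43, SE 0.08, limma adjusted p = 0.0369). Of 18 genes of MYC turnover and 16 tested regulators of MYC expression, 0 passed in limma for CD28 or CD86 shRNA against Vec, with medians of -0.12 and -0.17 under CD28 shRNA and 0.04 and -0.01 under CD86 shRNA. At an unadjusted p under 0.05 they numbered 6 and 3 under CD28 shRNA and 1 and 2 under CD86 shRNA, and voom called 1 regulator, under CD28 shRNA. Of all 11316 genes, 2240 under CD28 shRNA and 1453 under CD86 shRNA had an unadjusted p under 0.05. The unadjusted counts of each list here are to be read beside these. For CD86 shRNA against CD28 shRNA, 3 corepressors (L3MBTL2, SAP30 and RBBP4) and the coactivators RUVBL1 and WDR5 were higher and ACTL6A lower, and the turnover gene SET and the RNA-binding proteins IGF2BP2 and HNRNPD were higher, where 5.41% of all genes were higher and 4.1% lower. Of 5 tested genes that MYC represses, 0 passed for any shRNA against Vec in limma or voom (2 at an unadjusted p under 0.05, both under CD28 shRNA). Under Gapdh shRNA 0 genes of any list passed in limma or voom.

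Neither tested target of MLX complexes passed under CD86 shRNA, where MLX fell. KLF10 was higher under CD28 shRNA (log2 change 0.50, SE 0.11, limma adjusted p = 0.04), where MLX was at -0.03, and was at 0.38 under CD86 shRNA (limma adjusted p = 0.172). TXNIP, the textbook target of MLX with its glucose-sensing partners, was at 0.57 (limma adjusted p = 0.0975) under CD28 shRNA and 0.18 (limma adjusted p = 0.687) under CD86 shRNA. ARRDC4, another such target, averaged below the 1 FPKM minimum. TXNIP differed far more by line, with 7.63 to 13.1 FPKM in KMS18 against 39.4 to 62.3 FPKM in MM.1s (log2 difference -2.19, SE 0.15, limma adjusted p = 2.33e-07), while MLX was alike in both (-0.01). Of its partners, MLXIP averaged 8.35 ± 0.450 FPKM in KMS18, 12.2 ± 1.32 in RPMI8226+Mcl1, 11.4 ± 0.590 in RPMI8226 and 9.55 ± 1.44 in MM.1s (SD, 4 libraries each), and MLXIPL was listed at 0 in KMS18 and MM.1s and reached 0.783 FPKM elsewhere.

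The MYC paralogs, which use the same partner MAX, differed between lines. MYCN had 4.78, 3.54, 7.75 and 5.66 FPKM in RPMI8226+Mcl1 with CD28, CD86 and Gapdh shRNA and Vec, against 7.87, 11.008, 10.6 and 11.3 FPKM in RPMI8226 (log2 difference -0.83, SE 0.16, limma adjusted p = 0.00619). In MM.1s MYCN had 1.63, 1.23, 0.475 and 0.401 FPKM, and in KMS18 at most 0.269 FPKM, or 4 reads. RPMI8226, the line with the most MYC, thus also had the most MYCN, by 2.57 over MM.1s (SE 0.20, limma adjusted p = 6.39e-07). MYCL averaged 0.772 ± 0.275 FPKM in KMS18, 1.65 ± 0.437 in RPMI8226 and 3.26 ± 1.48 in MM.1s (SD, 4 libraries each), where it was 5.46 FPKM with CD28 shRNA and 2.30 to 2.72 with the other constructs. None of MYCN, MYCL and MLXIP passed for a shRNA against Vec (limma adjusted p 0.661 to 0.9999 over the 3 shRNAs).

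The genes most like MYC were sought by Pearson's r over the 16 libraries, after the mean of each background was taken off log2(FPKM + 1). The highest r were those of C11orf96 (0.94), PARP1, a DNA damage sensor (0.94), OAF (0.93), ERC1 (0.93) and TXLNG (0.93), and the lowest those of CROT, a peroxisomal acyltransferase (-0.95), TRPM8, a cation channel (-0.93), C1orf43 (-0.93), LGMN, a lysosomal protease (-0.93), and RCBTB2 (-0.93). These are extremes among 11349 genes over libraries that share lines and constructs, and are given as a description. MYC varied most in KMS18 and MM.1s (SD 73.3 and 64.0 FPKM) and little in RPMI8226 and RPMI8226+Mcl1 (12.2 and 21.0 FPKM). Every r here therefore rests mostly on KMS18 and MM.1s, where MYC was lowest with CD28 shRNA. Among the members r with MYC was -0.61 for MXD3, -0.39 for MXI1, -0.28 for MXD1, -0.08 for MLX, 0.09 for MGA, 0.15 for MXD4, 0.21 for MAX and 0.30 for MNT.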

How the data were processed

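The authors deposited FPKM values per gene for 16 libraries, with exon lengths, and log2 fold changes, test scores and p-values for 3 comparisons. The submitters' processing notes name edgeR 3.12.1, R 3.2.2, TopHat2 2.0.13 and Picard, and mm9, GRCh37 and hg19 as builds, with no role for any. The 9 members and all gene lists were chosen with earlier results of these data known.

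Genes averaging 1 FPKM or more were tested with limma 3.58.1 (R 4.3.3; eBayes with trend) on log2(FPKM + 1), two-sided, with Benjamini-Hochberg adjustment over all genes and a threshold of 0.05. This scale understates changes of low genes. Constructs were compared in 12 parental libraries with line as a block, since each construct was given once to each line (deviations of same-line libraries, r 0.87 to 0.95 over 18 pairs). Lines were compared in the same fit, RPMI8226+Mcl1 with RPMI8226 in 8 libraries with construct as a block, and the interactions were fitted in all 16 libraries. The labels do not tell separate cultures apart, so p-values measure the spread between libraries. The fits were tested on simulated data. FPKM times exon length gave whole reads (100% within 0.02), used for depth and for voom. Named genes are the members, up to 4 called genes per list with the smallest p, and the 5 highest and 5 lowest correlations with MYC.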

Additional observations from a re-analysis of the deposited data

Results flagged for a closer look

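In 36 groups of 4 libraries (9 genes in 4 backgrounds), 2 had a library far from the others, and chance alone flags about 1 in 20 groups. MAX was at 10.1 FPKM in the MM.1s library with CD28 shRNA, against 13.3 to 13.5 FPKM in the other MM.1s libraries. MXD1 was at 3.61 FPKM in the RPMI8226+Mcl1 library with CD28 shRNA, against 4.36 to 4.50 FPKM in the others of that background. Both are the library with the fewest reads of its background, and the part of depth in either value was not tested.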

How the results depend on the processing

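Of 702 estimates for members under alternatives, 591 kept their direction and their side of the threshold, some with a large change in size, 46 lost and 14 gained a call. No called estimate changed sign; 52 uncalled ones did (size up to 0.25). The number of members called for CD28 shRNA against Vec was 1, and 0 with a pseudocount of 0.1, with every gene above 0, with median-of-ratios scaling, with no replicate block and with only 2 groups in the fit. For CD86 shRNA against Vec it was 1, and 0 without the block or with 2 groups. For CD86 against CD28 shRNA it was 1, but 2 with voom (chosen after seeing the data) and 0 without the block or with 2 groups. Leaving out a line gave 0 to 1 members for CD28 shRNA, 0 for CD86 shRNA and 0 to 2 for CD86 against CD28 shRNA. Leaving out a construct gave 4 to 5 members for KMS18 against RPMI8226 (7 in full) and 1 to 2 for RPMI8226+Mcl1 against RPMI8226 (3 in full; 1 with every gene above 0, 1 with no replicate block, 6 with voom). The replicate block is the line, or the construct between lines. The mean log2 ratio of MYC to its antagonists on reads not divided by length was 2.04 in KMS18, 2.25 in RPMI8226+Mcl1, 2.39 in RPMI8226 and 1.24 in MM.1s, and without MGA and MNT 3.61 in RPMI8226+Mcl1 and 3.65 in RPMI8226. Over all genes, calls for CD28 shRNA ranged from 0 (no block; 204 at unadjusted p under 0.05) to 1036 (16 libraries) against 320, for CD86 shRNA from 0 (no block, or without KMS18; 83 and 906 unadjusted) to 282 against 71, and for CD86 against CD28 shRNA from 0 (no block; 350 unadjusted) to 2122 (16 libraries) against 1076. With every gene above 0 they were 147, 30 and 605, and the interactions gave 113, 115 and 90 genes against 1, 0 and 0. With voom, CD28 and CD86 shRNA gave 599 and 224. RPMI8226+Mcl1 against RPMI8226 gave 2459 with no block, against 3793. The causes were not tested. The planned edgeR and DESeq2 fits were not run, as the deposited values are FPKM; voom took their place. Depth limits MXD1 most, at 40 to 166 reads.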
